A study of Mus musculus with 9 samples.

Results

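The chaperones of the endoplasmic reticulum (ER) are described here by 10 genes, Hspa5, Hyou1, Dnajb9, Dnajb11, Dnajc3, Sdf2l1, Creld2, Hsp90b1, Pdia4 and Pdia6. They were taken as a named list of ER folding genes, and every probe set annotated to 1 of them alone was used. That gave 21 of 34945 probe sets and 10 of 18193 tested genes. Single-colour Affymetrix arrays were run on liver RNA of male mice aged 14 weeks, with 4 samples of BKS.Cg-Leprdb (db/db) mice and 5 of C57BL/KSlepr+/+ (BKS) littermates, all on chow. The db/db mouse carries a germline mutation that removes the signalling form of the leptin receptor, and the study took it at an age when obesity, diabetes and fatty liver were present. A difference between the groups is therefore one between whole animals, not one of liver cells alone. Samples carry numbers only, and nothing states that they are separate mice, so each p-value is relative to sample-to-sample spread, which may be technical. The tissue is bulk liver, in which fewer cells of a type and less RNA per cell cannot be told apart.

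Secreted and membrane proteins fold in the lumen of the ER, and hepatocytes carry a heavy load of them because liver makes most plasma proteins. Hspa5, known as BiP, is the HSP70 of that compartment. J-domain proteins deliver unfolded chains to it and stimulate its ATPase, an exchange factor resets it, and disulfide isomerases and the HSP90 of the lumen act on the same clients. When unfolded chains accumulate, the sensors IRE1, PERK and ATF6 raise the RNA of many of these genes. Part of that rise runs through a promoter sequence called the ER stress response element (ERSE), which ATF6 and the spliced form of XBP1 recognise next to a CCAAT box.

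Promoter stretches are shown first because they carry this element, which few mouse promoters hold. RefSeq promoters of the GRCm38.p6 build, each 250 bases before to 50 bases after a gene's start, were matched for 9 of the 10 genes. The ERSE, spelled CCAAT, then any 9 bases, then CCACG, was searched on both strands. It lay in the promoters of 5 of those 9 genes, and in 39 of all 32851 promoters of that length (0.119%). The ERSE-II, spelled ATTGG, then any 1 base, then CCACG, lay in 1 of the 9 and in 0.0365% of all promoters. Both motifs end in CCACG and could overlap there, but no promoter of the 9 held both. A further motif, TGACGTGG, the core of an element bound by XBP1, lay in none of the 9 and in 0.676% of all promoters. The stretches below carry 10 bases on either side of each match, run 5′ to 3′ along the gene's strand, and have the fixed parts of the motif in capitals. A match is a description of letters and does not show that a factor binds there.
Hspa5: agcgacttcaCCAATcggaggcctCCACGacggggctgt
Pdia6: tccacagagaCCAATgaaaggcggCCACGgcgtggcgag
Dnajc3: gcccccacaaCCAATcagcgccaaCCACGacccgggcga
Creld2: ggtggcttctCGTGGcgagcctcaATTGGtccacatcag
Hsp90b1, far site: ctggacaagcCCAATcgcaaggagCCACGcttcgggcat
Hsp90b1, near site: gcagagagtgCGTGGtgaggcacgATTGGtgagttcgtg
Dnajb11, ERSE-II: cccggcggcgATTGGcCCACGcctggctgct

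All the ERSE matches lay upstream of the gene's start. In Hspa5 the element began 65 bases before the start (chr2:34772015-34772053 with its flanks, plus strand), in Pdia6 98 bases before (chr12:17266481-17266519, plus strand) and in Dnajc3 105 bases before (chr14:118937817-118937855, plus strand). In Creld2 it lay on the opposite strand, 126 bases before the start (chr15:88819510-88819548, plus strand). Hsp90b1 held 2, at 212 bases (chr10:86705628-86705666, minus strand) and, on the opposite strand, at 107 bases before the start (chr10:86705523-86705561, minus strand). The ERSE-II of Dnajb11 began 7 bases past the start (chr16:22857842-22857872, plus strand). Pdia4, Dnajb9 and Sdf2l1 held none of the 3 motifs in this window. Pdia4 (chr6:47796141-47813512), Dnajb9 (chr12:44205897-44210068) and Hyou1 (chr9:44379490-44392369) are protein-coding genes, as are the other 7. The whole promoter of Sdf2l1 is given because its RNA changed most among the 10 genes (chr16:17132334-17132633, minus strand).
Sdf2l1: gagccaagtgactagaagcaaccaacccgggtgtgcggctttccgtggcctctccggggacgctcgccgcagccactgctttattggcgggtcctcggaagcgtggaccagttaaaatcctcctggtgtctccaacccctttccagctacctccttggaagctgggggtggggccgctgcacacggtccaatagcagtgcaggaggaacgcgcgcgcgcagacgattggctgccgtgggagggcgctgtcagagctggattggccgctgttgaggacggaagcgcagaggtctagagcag

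Livers of db/db mice had less RNA of most of these chaperones. Of the 10 genes 6 fell and none rose, where a gene was called at an adjusted p under 0.05 (limma across all 18193 genes, Benjamini-Hochberg adjustment). Over all genes 2.60% fell and 2.89% rose. Sdf2l1 fell 5.69-fold, Creld2 3.48-fold, Pdia6 1.81-fold, Dnajb11 1.74-fold, Hsp90b1 1.59-fold and Hspa5 1.57-fold. Dnajb9, Hyou1, Dnajc3 and Pdia4 did not pass. The median log2 fold change was -0.66 over the 10 genes, against 0.00 over all genes (-0.0022), and 9 of the 10 had a negative change. In 5 of the 10 genes all 4 db/db arrays lay below all 5 BKS arrays, a pattern found in 4.42% of all genes. The number of calls depends on how the arrays are scaled and the variance is moderated. With median centring in place of quantile normalization only Sdf2l1 and Creld2 passed, while Dnajb11 (adjusted p = 0.0782), Pdia6 (0.168), Hspa5 (0.395) and Hsp90b1 (0.453) had negative changes that did not; without an intensity trend in the variance 3 passed, Creld2 not among them (0.0604). Values below are log2(signal + 16) after quantile normalization, from the brightest probe set of each gene, and folds are on that scale. Probe sets differ in how well they bind, so levels are compared between the groups and not from gene to gene.

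**Figure D1:**
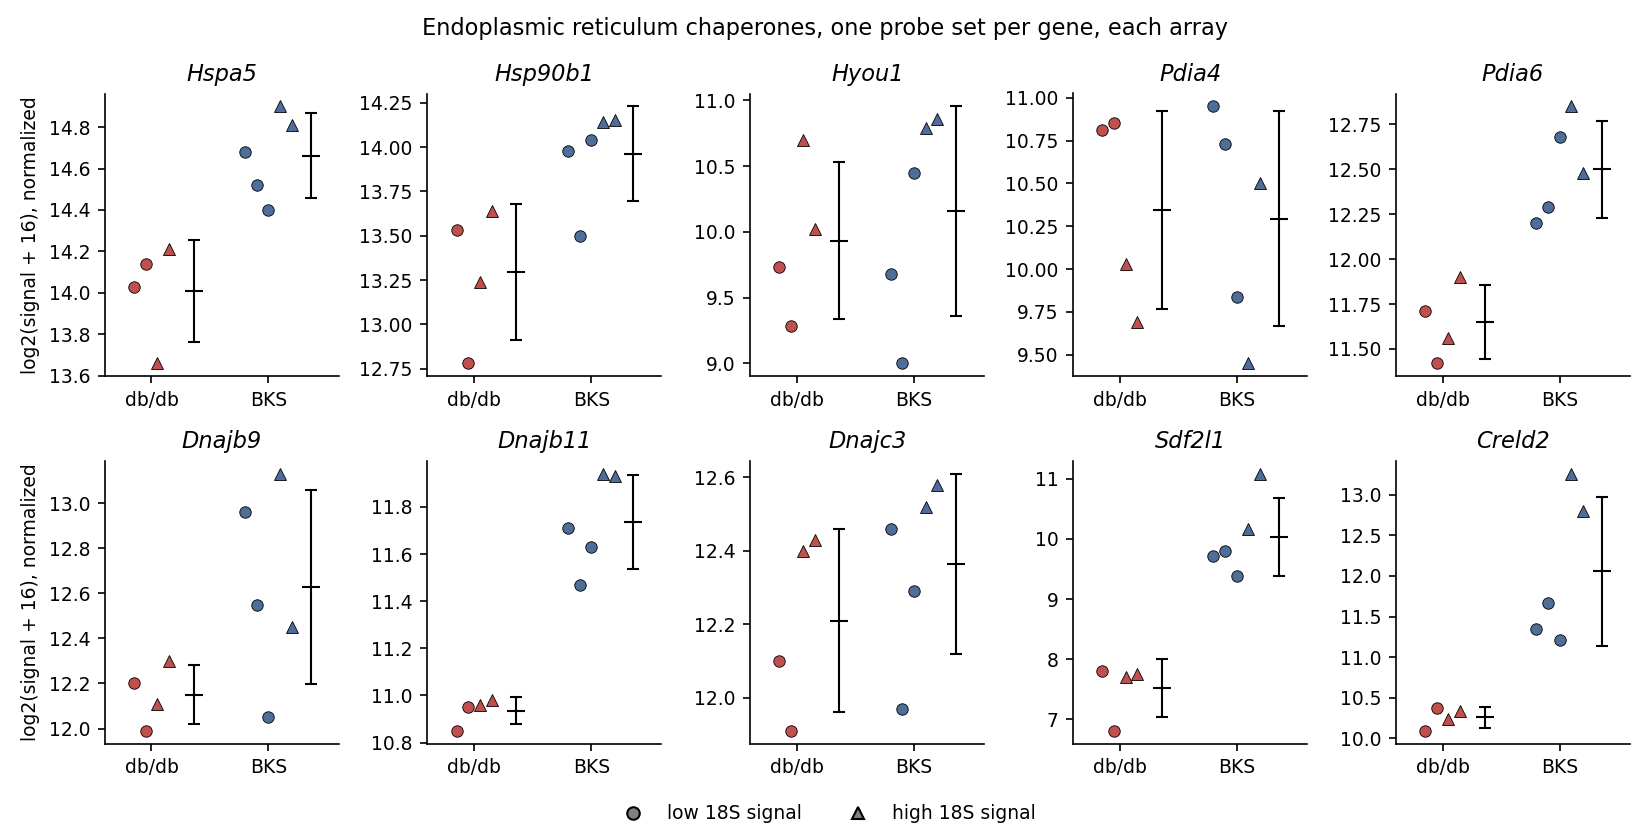
Each panel shows 1 gene, with log2(signal + 16) after normalization on the y axis and a point for each of 4 db/db (left) and 5 BKS (right) arrays; bars give the mean and SD, and triangles mark arrays with a high 18S ribosomal RNA signal. The groups are apart in Hspa5, Pdia6, Dnajb11, Sdf2l1 and Creld2, and they overlap in the other 5 genes. The y axes differ between panels.

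One property of the arrays bears on these values. The control probe sets for 18S ribosomal RNA were bright on db/db 3, db/db 4, BKS 4 and BKS 5 (3′ probe set 6110, 7220, 19771 and 1873) and between 22.2 and 43.5 on the other 5 arrays. The ratio of the 3′ to the 5′ control probe set of beta-actin, which rises as RNA is degraded, was 3.18 and 3.98 on db/db 3 and 4 and 5.93 and 3.83 on BKS 4 and 5. It was 1.62 and 1.70 on db/db 1 and 2 and 3.32, 1.68 and 1.80 on BKS 1 to 3. Both sets of arrays hold both genotypes. With the set as a block in the fit the same 6 genes fell, against 4.13% of all genes, and 9 of the 10 genes had lower means in db/db within both sets.

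Hspa5 encodes BiP itself, which also holds the stress sensors inactive when few chains are unfolded. It read 14.03, 14.14, 13.66 and 14.21 in db/db 1 to 4, against 14.68, 14.52, 14.40, 14.90 and 14.81 in BKS 1 to 5. Every db/db array was below every BKS array, with the gap between db/db 4 and BKS 3 the narrowest. The log2 fold change was -0.65 (SE 0.14, limma adjusted p = 0.0139), from means of 14.01 ± 0.25 in db/db and 14.66 ± 0.21 in BKS (SD, n = 4 and 5). The other 2 probe sets of Hspa5 stood at -0.70 and -0.71, and neither had overlapping groups. Low 18S arrays gave -0.44 and high ones -0.92.

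Among the J-domain proteins that serve BiP, Dnajb11 (ERdj3), which binds unfolded chains directly, had the most even values. It read 10.85, 10.95, 10.96 and 10.98 in db/db 1 to 4, against 11.71, 11.47, 11.63, 11.94 and 11.93 in BKS 1 to 5. The groups were far apart relative to their spread, with an SD of 0.06 in db/db and 0.20 in BKS. On the log2 scale the change was -0.80 (SE 0.12, limma adjusted p = 0.00146). Low 18S arrays gave -0.70 and high ones -0.97.

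Dnajb9 (ERdj4), a J-domain protein that helps BiP to repress IRE1, was lower in the mean but overlapped. It read 12.20, 11.99, 12.11 and 12.30 in db/db 1 to 4, against 12.96, 12.55, 12.05, 13.13 and 12.45 in BKS 1 to 5. Only BKS 3 lay within the range of the db/db arrays. The log2 fold change of -0.48 did not pass (SE 0.19, limma adjusted p = 0.184, 95% interval -0.88 to -0.08). Without BKS 3, the array that overlapped, it was -0.62 and passed (limma adjusted p = 0.0466). When each array was dropped in turn, Dnajb9 passed in that 1 of 9 fits only, with an adjusted p of up to 0.334 in the others. It passed in 0 of the 13 alternative fits given below.

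Dnajc3 (P58IPK), a J-domain protein once described as an inhibitor of the kinase PERK, has 5 probe sets, which disagreed in size. The brightest read 12.10, 11.91, 12.40 and 12.43 in db/db 1 to 4, against 12.46, 11.97, 12.29, 12.52 and 12.58 in BKS 1 to 5. These groups overlapped over most of their range. The log2 fold change was -0.16 (SE 0.15, limma adjusted p = 0.668, 95% interval -0.48 to 0.17). The other 4 probe sets ran from -0.51 to 0.01, and the one at -0.51 had groups that did not overlap but missed the threshold across all probe sets (adjusted p = 0.0575).

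Sdf2l1 encodes a small soluble ER protein that forms a complex with Dnajb11 and keeps clients from aggregating. Its only probe set read 7.81, 6.81, 7.70 and 7.76 in db/db 1 to 4, against 9.72, 9.80, 9.39, 10.16 and 11.08 in BKS 1 to 5. The groups were separated by more than the SD of either, and db/db 2 lay well below the other 3 db/db arrays. On the log2 scale the change was -2.51 (SE 0.32, limma adjusted p = 4.52e-04), from means of 7.52 ± 0.48 in db/db and 10.03 ± 0.65 in BKS (SD, n = 4 and 5). Counted from the most negative change, Sdf2l1 stood at rank 23 of 18193 genes. Within the low 18S arrays alone the change was -2.32 (adjusted p = 0.00902), and within the high ones -2.89 (adjusted p = 0.00263).

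Sdf2l1 can be set against its partners on the same arrays. Relative to each of the other 9 genes, its log2 level changed by between -0.71, against Creld2, and -2.56, against Pdia4. For 8 of the 9 genes the within-array ratio was lower on all 4 db/db arrays than on any BKS array, Creld2 being the exception. Relative to Dnajb11 the change was -1.71. All these ratios share the values of Sdf2l1, whose own groups did not overlap, so the 8 are not separate results. Sdf2l1 was singled out after its values were seen, so these differences are a description without a test.

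Creld2, a soluble ER protein whose RNA is known to rise under ER stress, also has a single probe set. It read 10.09, 10.37, 10.23 and 10.34 in db/db 1 to 4, against 11.34, 11.67, 11.21, 13.26 and 12.80 in BKS 1 to 5. The db/db arrays were tight and all below BKS, while BKS 4 and BKS 5 stood far above the other BKS arrays. The log2 fold change was -1.80 (SE 0.36, limma adjusted p = 0.00922), from means of 10.26 ± 0.13 in db/db and 12.06 ± 0.92 in BKS (SD, n = 4 and 5).

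BKS 4 and BKS 5 are the BKS arrays with a high 18S signal. The change of Creld2 was -1.18 within the low 18S arrays (adjusted p = 0.0156) and -2.75 within the high ones (adjusted p = 1.48e-04). The difference between the sets, -1.57 (SE 0.27), was tested as an interaction and did not pass (limma adjusted p = 0.161). Of all genes 0.0330% passed that test. The part of RNA quality in this difference was not tested.

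**Figure D2:**
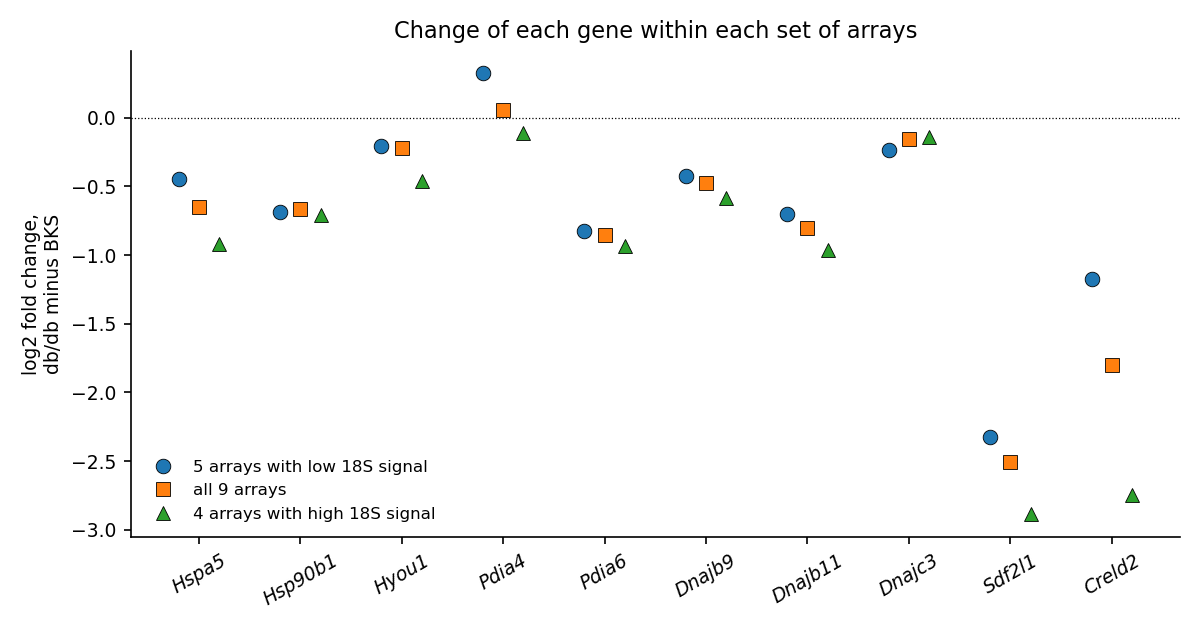
Log2 fold change, db/db minus BKS, of each of the 10 genes on the y axis, from the 5 arrays with low 18S signal (circles), all 9 arrays (squares) and the 4 arrays with high 18S signal (triangles). Sdf2l1 and Creld2 are lowest in both sets, Creld2 runs from -1.18 to -2.75 between them, and Pdia4 is above 0 in the low and below 0 in the high set.

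Hyou1 (GRP170), the exchange factor that frees nucleotide from BiP, showed no change that could be told from the spread. Its brightest probe set read 9.73, 9.28, 10.70 and 10.02 in db/db 1 to 4, against 9.68, 9.0, 10.45, 10.79 and 10.86 in BKS 1 to 5. Values ran over the same range in both groups, and within both the arrays with low 18S signal included the lowest. On the log2 scale the change was -0.22 (SE 0.37, limma adjusted p = 0.830), and its 95% interval from -1.02 to 0.58 includes a fall of the size seen for Hspa5. The other 2 probe sets stood at -0.13 and -0.38.

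Hsp90b1 (GRP94), the HSP90 of the ER lumen, which folds integrins and Toll-like receptors among others, passed narrowly. It read 13.53, 12.78, 13.24 and 13.64 in db/db 1 to 4, against 13.98, 13.50, 14.04, 14.14 and 14.15 in BKS 1 to 5. The groups touched only through BKS 2, which was as low as the highest db/db arrays. The log2 fold change was -0.67 (SE 0.18, limma adjusted p = 0.0480). Low 18S arrays gave -0.68 and high ones -0.71. When each array was dropped in turn, the call held in 2 of 9 fits, with an adjusted p of at most 0.125. The second probe set stood at -0.38 without passing.

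Of the disulfide isomerases, Pdia6 passed and Pdia4 did not, a difference that was not itself tested. Pdia6 (P5), which pairs with BiP and forms and rearranges disulfide bonds, read 11.71, 11.42, 11.56 and 11.90 in db/db 1 to 4, against 12.20, 12.29, 12.68, 12.85 and 12.48 in BKS 1 to 5. All db/db arrays were below all BKS arrays. On the log2 scale the change was -0.85 (SE 0.15, limma adjusted p = 0.00412). Low 18S arrays gave -0.83 and high ones -0.93. Its second probe set stood at -0.90 with overlapping groups.

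Pdia4 (ERp72), a larger isomerase of the same lumen, was the only gene of the 10 with a positive estimate. It read 10.81, 10.85, 10.03 and 9.69 in db/db 1 to 4, against 10.95, 10.73, 9.84, 9.45 and 10.50 in BKS 1 to 5. The groups covered nearly the same range. The log2 fold change was 0.05 (SE 0.32, limma adjusted p = 0.957), with a 95% interval from -0.63 to 0.74. That interval stops just short of the change of Hspa5 (-0.65). Its sign turned with the set of arrays, at 0.33 for low and -0.11 for high 18S signal.

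Across all 21 probe sets, each tested as its own row, 6 fell and none rose, against 1.51% of 34945 probe sets that fell. The 6 belong to 5 genes, with 2 for Hspa5 and 1 each for Pdia6, Dnajb11, Sdf2l1 and Creld2. The probe set of Hsp90b1 that passed among genes missed the threshold here (limma adjusted p = 0.0667). The estimate was negative for 19 of the 21. Of the 10 genes 4 rest on a single probe set, and for these no second probe set was used here.

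**Figure D3:**
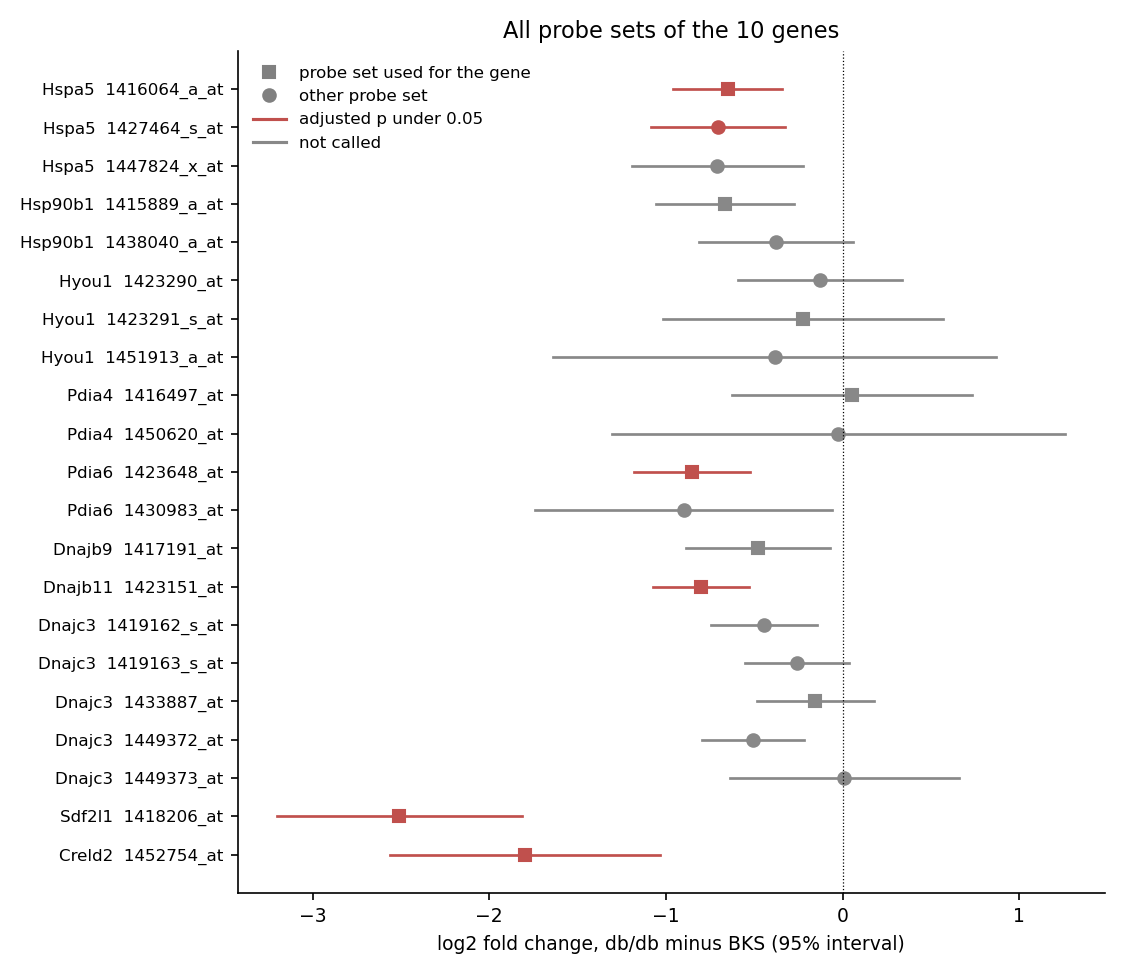
Log2 fold change, db/db minus BKS, with its 95% interval on the x axis for each of the 21 probe sets, grouped by gene. Squares are the probe set used for the gene, and red marks an adjusted p under 0.05 over all probe sets. The 3 probe sets of Hspa5 stand close together, from -0.65 to -0.71, whereas the 5 of Dnajc3 run from -0.51 to 0.01.

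Within the genotypes the 10 genes varied only partly together. Over the 9 arrays the deviations from the group means had a median pairwise correlation of 0.41 over 45 pairs, from -0.86 for Pdia4 with Pdia6 to 0.82 for Hyou1 with Dnajc3. Once the 18S set was also taken out the median was 0.10. The mean standardized deviation of the 10 genes was highest on BKS 4 and BKS 5 (0.85 and 0.74) and lowest on BKS 2 and BKS 3 (-0.89 and -0.59). Pdia4 ran against the mean of the others (correlation -0.57), and Dnajb11 followed it most closely (0.83). These correlations share the 9 arrays and their RNA quality and are given as a description.

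Other genes that fold proteins in the ER were counted in the same fit. Of 34 measured genes 6 fell and none rose, with a median log2 fold change of -0.37, and the number that fell ran from 3, without BKS 4, to 6 when 1 array was left out. With the 18S block 10 fell. The 3 with the smallest p were Ppib, a prolyl isomerase known as cyclophilin B (1.51-fold lower, adjusted p = 0.00204), Mogs, the glucosidase that starts trimming of N-glycans (1.75-fold, adjusted p = 0.00483), and Ero1b, an oxidase that recharges disulfide isomerases (1.66-fold, adjusted p = 0.0116). All 3 had groups that did not overlap.

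Of 23 measured genes of ER-associated degradation, which exports misfolded proteins to the proteasome, 4 fell and 1 rose, and the median was -0.13. Without db/db 3 only 1 fell. Derl3, a derlin of the export channel, fell 6.38-fold, to 6.82 in db/db against 9.49 in BKS (log2 fold change -2.67, SE 0.46, adjusted p = 0.00365). Sel1l, the partner of the ubiquitin ligase of that pathway, fell 1.57-fold (adjusted p = 0.0132), and Selenos, a selenoprotein of the export machinery, 1.38-fold (adjusted p = 0.0265). Rnf5, a membrane-bound ubiquitin ligase, rose 1.53-fold with overlapping groups (adjusted p = 0.0465).

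Of 21 measured genes of ER translocation, the step that brings new chains into the lumen, 4 fell and none rose. All 21 had a negative estimate, with a median of -0.28, and 2 fell without BKS 4 and 6 with the 18S block. Spcs3 of the signal peptidase (log2 fold change -0.58, adjusted p = 0.0108) and Sec61b of the channel (1.38-fold, adjusted p = 0.0157) had the smallest p. In the oligosaccharyltransferase, which attaches N-glycans, 3 of 11 fell with a median of -0.01, among them Rpn1 (1.89-fold, adjusted p = 7.89e-04) and Krtcap2 (1.82-fold, adjusted p = 0.00145).

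Among 16 sensors and transcription factors of the unfolded protein response 2 fell and none rose, and 1 fell without BKS 3. The 2 were Xbp1, the factor spliced on ER stress (1.93-fold, adjusted p = 1.83e-04), and Ern1, which encodes IRE1 (1.51-fold, adjusted p = 0.0319). With the 18S block 2 fell and 2 rose. Those that rose in that fit were Nfe2l2, which encodes the factor NRF2 (log2 fold change 0.80, adjusted p = 0.0125), and the sensor Atf6 (0.49, adjusted p = 0.0307). Without the block they stood at 0.75 (adjusted p = 0.0688) and 0.53 (adjusted p = 0.0988), with overlapping groups. The signal of Xbp1 does not tell the spliced from the unspliced message.

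**Figure D4:**
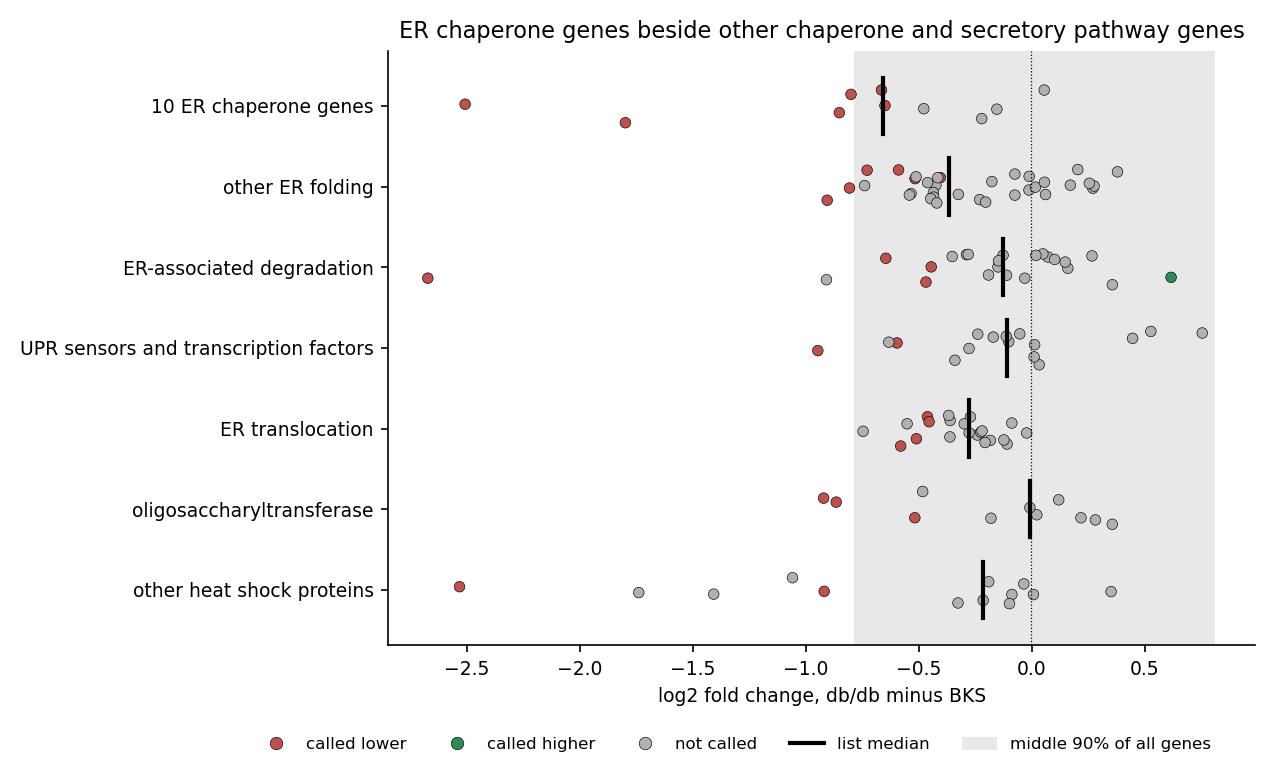
Log2 fold change, db/db minus BKS, of each measured gene (points) in the 10 ER chaperone genes and 6 other lists, with the list median as a black bar. Red points fell, green rose and grey did not pass, and the shaded band from -0.79 to 0.81 holds the middle 90% of all genes. The median of the 10 genes (-0.66) is the lowest of the 7, and Derl3, Hspb1, Sdf2l1 and Creld2 lie far outside the band. So do Hspa1b (-1.74) and Hspa1a (-1.41), which did not pass.

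The genes that hold the ERSE were also followed beyond the 10. Of 37 genes with the element in a promoter, 20 were measured, 5 of them among the 10 described above. Of the other 15, 3 fell and 1 rose, 13 had a negative estimate and the median was -0.40. Over all genes 2.60% fell, 2.89% rose and 9142 of 18193 had a negative estimate. Some of the 15 were dim, such as Ptgdr2 (4.52 in db/db, 4.66 in BKS) and Tdrd9 (4.74 and 4.85), so their signs say little. Among the 15, those that fell were Derl3, Ero1b and Calr, which encodes the lectin chaperone calreticulin (log2 fold change -0.41, adjusted p = 0.0390). Canx, which encodes calnexin, was at -0.43 (adjusted p = 0.107) and Syvn1, the ubiquitin ligase partner of Sel1l, at -0.91 (adjusted p = 0.0989). Canx, Syvn1 and the 3 that fell all belong to the lists of ER folding or degradation genes counted above. None of the remaining genes of the 15 fell. The 1 that rose was Acnat2, an acyl-CoA amino acid acyltransferase (log2 fold change 2.29, adjusted p = 8.14e-04). Of the 10 genes themselves, Dnajc3 has the element and did not pass by its brightest probe set, while Sdf2l1 has none in its window and fell most. The search took exact letters in that window only, so inexact or more distant elements would be missed. The part of the element in these changes was not tested.

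Markers of the liver's cells were set beside these results. As a check of the tissue, all 8 measured hepatocyte markers had a signal above the median over all genes. Their summed signal was 248921 to 262800 in db/db and 269732 to 275893 in BKS. Of the 8, 4 had a negative estimate, and the median log2 fold change was -0.08. Asgr1, a receptor of hepatocytes, rose 1.56-fold (adjusted p = 0.0123) and was the only one to pass. Apoa1, the main protein of HDL, stood at -0.38 (adjusted p = 0.179) and Fgb, a fibrinogen chain, at -0.19 (adjusted p = 0.294), both with all db/db arrays below all BKS arrays. The factor Hnf4a stood at -0.35 (adjusted p = 0.125) and Alb, which encodes albumin, at 0.03.

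Plasma cells and pancreatic acinar cells are rich in ER chaperones. The summed signal of 6 B and plasma cell markers was 467 to 598 in db/db and 598 to 888 in BKS. All 6 were negative and none passed the test (limma, 0 at an unadjusted p under 0.05, against 3208 of all 18193 genes). The summed signal of 7 acinar markers was 1446 to 1588 in db/db and 2163 to 4892 in BKS. Most of these markers were dim, as 1 of the 6 and 2 of the 7 had a signal above the median over all genes. Cela1, an elastase, was by far the brightest of the 7 and weighs most in the acinar sums. Of the 7 only Cela1 passed, falling 2.73-fold to 10.01 in db/db, against 11.46 in BKS (adjusted p = 0.00249). Only 2 of the 7 had a negative estimate, the other being Cpb1 (-0.22, adjusted p = 0.859), and the median was 0.12.

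In the fit without a block no marker passed among 11 of Kupffer cells, 8 of stellate cells, 7 of endothelium, 4 of cholangiocytes, 6 of T and NK cells, 5 of neutrophils and 4 of adipocytes. At an unadjusted p under 0.05 (limma) there were 4, 4, 3, 2, 1, 0 and 0 in that order, against 3208 of all 18193 genes. Markers with a signal above the median over all genes numbered 8, 6, 5, 1, 1, 1 and 0, so the last 4 lists were mostly dim. With the 18S block some passed. The Kupffer cell markers Cd5l (log2 fold change -0.87, adjusted p = 0.0249) and Adgre1 (-0.62, adjusted p = 0.0364) fell, as did the cholangiocyte marker Sox9 (-1.59, adjusted p = 0.0268). The stellate cell marker Lrat (0.98, adjusted p = 0.0398), the mural cell marker Rgs5 (1.41, adjusted p = 0.00326) and the endothelial marker Pecam1 (1.64, adjusted p = 0.0470) rose. Pecam1 was dim, with means of 7.21 in db/db and 5.66 in BKS. Their lists were mixed without the block, with negative estimates for 3 of the 8 stellate cell and 3 of the 7 endothelial markers. Among these were Lum (-0.87, adjusted p = 0.204) and Cdh5 (-0.37, adjusted p = 0.634). Estimates were negative for 9 of 11 Kupffer cell, 3 of 4 cholangiocyte and 6 of 6 T and NK cell markers. They were also negative for 4 of 5 neutrophil and 1 of 4 adipocyte markers, and for 9142 of all 18193 genes. Without the block Rgs5 (1.32), Des (1.03) and Vwf (1.19) had all db/db arrays above all BKS arrays. Cd4 of the T and NK cell list (-1.39, adjusted p = 0.0539) had all db/db arrays below all BKS arrays. The downward pattern was found in 4.42% of all genes, and the share with the upward one was not counted. Des and Vwf were dim, with BKS means of 6.26 and 5.84. When 1 array was left out, up to 1 marker fell in each of the Kupffer cell, cholangiocyte and T and NK cell lists. The summed signal of Kupffer cell markers was 4451 to 11458 in db/db and 7036 to 20179 in BKS, that of stellate cell markers 5612 to 15765 in db/db and 3142 to 13985 in BKS, and that of endothelial markers 1780 to 3773 in db/db and 1810 to 3640 in BKS. The part of any of these cells in the results was not tested.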

How the data were processed

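Biotin-labelled cRNA was made from 8 µg of liver total RNA for Affymetrix arrays, per the labels' protocols. The authors deposited 1 linear intensity per probe set and array, and the software behind it is not given in the sources used here. The deposited intensities had a mean of 500.0 on each array after trimming 2% at each end. No detection calls were used, and precision is limited by how many arrays there are.

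Here log2(intensity + 16) was quantile normalized, since array medians spanned 0.60. Each gene was represented by its brightest probe set over all 9 arrays, picked once. Probe sets with several symbols (932) or not listed in the annotation (9160) and 64 controls were left out. Genotype was tested with limma 3.58.1 in R 4.3.3 (lmFit, eBayes with intensity trend, two-sided, Benjamini-Hochberg over all 18193 genes), with no filter on dim genes. The test was checked on simulated data with independent noise in each gene and array. That noise held no shared effect of array scaling or RNA quality, so the check does not cover these. The 10 genes, the other lists and the alternatives were chosen with earlier results of these data known, the 18S split among them. All 10 genes are named, and from each other list up to 3 genes per direction for ER folding and degradation, and up to 2 otherwise, by smallest adjusted p among those called. The interaction of genotype with the 18S set, and the counts of the other lists with 1 array left out, were added after seeing the data. The genes most like the 10 were ranked by correlation. Genes holding the ERSE were named by that sequence, and marker genes singled out from their lists after their values were seen. Hspa1b, Hspa1a and Hsph1 were also named after their values were seen. Promoter sequences and gene coordinates are from RefSeq, GRCm38.p6. Samples of equal number in both groups had deviations correlated at 0.03, 0.17, -0.07 and 0.13, so numbers were not taken as pairs.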

Additional observations from a re-analysis of the deposited data

Results flagged for a closer look

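In 4 of 42 groups of arrays (each of the 21 probe sets in db/db and in BKS) 1 array lay far from the others by Dixon's test, which chance alone does in about 1 group of 20. Sdf2l1 on db/db 2 read 6.81, with the nearest db/db array at 7.70. One probe set of Dnajc3, not the one used for the gene, on db/db 2 read 11.11, with the nearest at 10.85. Hsp90b1 on BKS 2 read 13.50, with the nearest BKS array at 13.98, and another such probe set of Dnajc3 on BKS 2 read 10.47, with the nearest at 10.85. Without db/db 2 the log2 fold change of Hsp90b1 was -0.49, and without BKS 2 it was -0.78. That of Sdf2l1 stayed between -2.67 and -2.25 whichever array was left out, and it passed in all 9 fits.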

How the results depend on the processing

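The direction of all 6 calls held under the 13 alternatives and the 9 fits that left out 1 array, and the number called changed. It was 6 with pseudocounts of 1 and 64, with dim genes removed, with robust moderation, with the 18S block and with the replicate block, although the numbers were not found to pair the samples. It was 5 in the high 18S arrays alone and with averaged probe sets, 4 without further normalization, 3 in the low 18S arrays alone, without an intensity trend and with the most variable probe set, and 2 with median centring, where only Sdf2l1 and Creld2 passed. Leaving out 1 array gave 5 to 6. None of the 10 genes rose in any of these fits. Sdf2l1 passed in 13 of 13 alternatives, Dnajb11 and Creld2 in 12, Pdia6 in 10, Hspa5 in 8 and Hsp90b1 in 6. Pdia4 and Dnajc3, which were not called, changed sign: Pdia4 stood at -0.023 with the most variable probe set, -0.11 in the high 18S arrays and -0.06, -0.16, -0.10 and -0.11 without BKS 3, BKS 4, db/db 1 and db/db 2 (from -0.16 to 0.27 over all 9), and Dnajc3 at 0.0096 with the most variable probe set. The causes were not tested.

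Over all genes 526 rose and 473 fell. The counts were 323 and 212 with median centring, 254 and 212 without a trend, 209 and 200 in the low and 258 and 237 in the high 18S arrays, and 312 to 518 and 284 to 433 with 1 array left out, lowest without db/db 3. With the 18S block 751 fell, with the most variable probe set 260 and with averaged probe sets 273. The replicate block, which leaves out BKS 5, gave 598 and 546. No detection calls were used, so what signal over background limits was not assessed.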

Other observations

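Heat shock proteins outside the ER moved in part. Of 13 measured genes, which include chaperones of the cytosol and of mitochondria, 2 fell and none rose (median log2 fold change -0.22). Hspb1, a small heat shock protein of the cytosol, fell 5.79-fold (log2 fold change -2.53, SE 0.29, limma adjusted p = 2.06e-04), and Hsp90aa1, the inducible cytosolic HSP90, 1.89-fold (adjusted p = 0.00141). Both had groups that did not overlap. Of the 13 genes 11 had a negative estimate, and 5 had an unadjusted p under 0.05 (limma). Over all 18193 genes these numbers were 9142 and 3208. Hspa1b (-1.74, adjusted p = 0.0728), Hspa1a (-1.41, adjusted p = 0.114) and Hsph1 (-1.06, adjusted p = 0.124) had large negative changes that did not pass. Their groups overlapped.

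The genes whose deviations from their group means followed the 10 chaperones most closely over the 9 arrays were, among 9086 genes brighter than the median, Rangap1 (correlation 0.98), 4930581F22Rik, Klhl17, Tmem189, Bcs1l, Zc3h10, Pigu, Rdh7, Arhgef10 and Slc35a2 (0.94). None of them passed the test between genotypes. With the 18S set also taken out, these correlations were 0.75 to 0.98. With 9 arrays and so many genes this is a description only.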
